A study of Mus musculus with 9 samples.

Results

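The genes described here carry glucose into the cell, break it down to lactate or hand it to the mitochondria, and feed the pentose phosphate pathway. They were taken by symbol from a written list of 36 genes, all of which were among the 24060 genes of the expression table, and 35 of them were among the 11330 genes that were tested. Aldoc, an aldolase, was the exception: its highest level in any library was 0.28 TPM (transcript level corrected for gene length and set to an equal sum per library), under the maximum of more than 1 TPM that a gene had to reach. The other 35 genes were at 1 TPM or more in every library, so none of them was tested because of 1 clone alone.

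RNA was measured in CD8 T cells of 3 clones, R7-I, R7-III and R7-II, with 3 libraries each. Each clone comes from a line of transnuclear BALB/c mice, Rag2 proficient, made by nuclear transfer from a CD8 T cell specific for the ROP7 peptide of the parasite Toxoplasma gondii, so that a clone stands for 1 T cell receptor in its natural locus. The age of the mice was not given in the sources used here. All 9 libraries come from splenocytes given ROP7 peptide (10 µM) and IL-2 (10 ng/ml) overnight, and the sort kept cells positive for CD3, CD8 and the H-2Ld-Rop7 tetramer. The clones rank R7-I, R7-III, R7-II from high to low affinity for the peptide as measured with purified proteins, and R7-III, R7-I, R7-II in self-reactivity. In the authors' assay with the molecules held in membranes, R7-I and R7-III had similar affinities and R7-II the lowest. Unstimulated cells were not analysed here, so each value is a level after activation and no change from the resting state was measured.

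Resting T cells burn glucose mostly in their mitochondria. After activation through the T cell receptor they take up far more of it and turn much of the pyruvate into lactate even when oxygen is present, which leaves intermediates for building new cells. The pyruvate dehydrogenase kinases work at the fork where pyruvate either enters the mitochondria or becomes lactate, and the pentose phosphate pathway branches off early to make NADPH and ribose. The transcription factors Myc, which binds CACGTG, and Hif1a with its partner Arnt, which binds ACGTG or GCGTG, are known to drive many of these genes.

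The 4 upstream sequences that follow belong to the pairs of genes with the firmest differences in each direction, Hk2 and Ldha lower and Pdk1 and Ldhb higher in R7-II, and are shown to let the reader see which of these letters stand before each start site. They come from RefSeq on GRCm38.p6, the build of mm10, and hold the 250 bases before an annotated start, 5′ to 3′ on the strand of the gene. Capitals mark ACGTG or GCGTG on either strand. A full CACGTG is 1 capital run, since both strands of it hold ACGTG. Hk2 lies at chr6:82774455-82774704 on the minus strand, Ldha at chr7:46845554-46845803 on the plus strand (window 1 of 2), Pdk1 at chr2:71872974-71873223 on the plus strand (window 1 of 2), and Ldhb at chr6:142507958-142508207 on the minus strand.
Hk2: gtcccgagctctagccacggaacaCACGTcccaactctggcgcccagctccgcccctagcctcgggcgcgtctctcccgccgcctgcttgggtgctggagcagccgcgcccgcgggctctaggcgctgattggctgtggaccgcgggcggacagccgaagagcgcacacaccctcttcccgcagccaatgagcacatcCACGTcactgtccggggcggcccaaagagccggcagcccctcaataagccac
Ldha: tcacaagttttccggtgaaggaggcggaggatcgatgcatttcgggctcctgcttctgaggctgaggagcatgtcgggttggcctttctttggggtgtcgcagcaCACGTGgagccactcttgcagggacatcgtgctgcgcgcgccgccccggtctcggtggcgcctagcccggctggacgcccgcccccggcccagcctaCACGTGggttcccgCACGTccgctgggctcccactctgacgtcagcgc
Pdk1: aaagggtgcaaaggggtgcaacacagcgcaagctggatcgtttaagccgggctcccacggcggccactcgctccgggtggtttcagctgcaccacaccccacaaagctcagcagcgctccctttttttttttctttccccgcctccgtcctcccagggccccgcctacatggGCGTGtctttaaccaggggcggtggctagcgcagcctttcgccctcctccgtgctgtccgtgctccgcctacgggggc
Ldhb: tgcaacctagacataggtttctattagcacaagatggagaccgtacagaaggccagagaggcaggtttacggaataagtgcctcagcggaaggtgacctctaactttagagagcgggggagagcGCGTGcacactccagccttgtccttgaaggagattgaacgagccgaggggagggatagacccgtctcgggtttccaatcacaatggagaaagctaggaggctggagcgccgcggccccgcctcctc

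The Ldha window held CACGTG at 2 places, whose first bases lie at positions -145 and -48 from the start, and the Hk2 window held ACGTG without a full CACGTG. The Pdk1 and Ldhb windows held GCGTG only. Of the windows not shown, window 2 of Ldha also held GCGTG only, and window 2 of Pdk1 held none of these letters. Over all 35 genes with an upstream sequence (Slc2a3 had none), CACGTG stood in 6 of 51 windows (11.8%) against 6.02% of 32851 windows of all genes. ACGTG stood in 18 of the 51 windows (35.3%, against 16.6% of all) and GCGTG in 30 (58.8%, against 28.2% of all). Base composition was not matched, and ACGTG overlaps CACGTG. By direction, CACGTG was found before 2 of the 13 genes that R7-II had at lower levels than either other clone (Ldha, Slc16a1). It was also found before 2 of the 6 genes higher than in both (Pfkfb2, Pfkm). ACGTG was found before 6 of the 13 and 2 of the 6, and GCGTG before 9 of the 13 and 5 of the 6. These are few genes, and a difference by direction was not tested.

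In R7-II cells many abundant enzymes of glycolysis (Gapdh, Ldha, Pkm, Pgk1, Pgam1 and Eno1) were lower, and several isoenzymes and regulators with low levels were higher, than in R7-I and R7-III cells. Aldoa and Gpi1, also abundant, did not pass in either comparison. With limma on log2(TPM + 1), against R7-I, 14 of 35 genes were lower in R7-II and 12 higher at an adjusted p under 0.01, where 15.5% of all genes tested were lower and 40.6% higher. Against R7-III, 15 were lower and 6 were higher (all genes 18.0% and 35.6%). The median log2 fold change of the 35 genes was -0.05 in both comparisons, against 0.17 and 0.12 for all genes tested. Over 2-fold on the log2(TPM + 1) scale, Pdk1 alone passed against R7-I (higher, as did 5.98% of all genes; 1.27% were lower), and Pdk1 upwards and Eno3 downwards passed against R7-III (all genes 4.77% and 2.81%), so most of these differences are small and rest on a small spread between libraries.

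The number of genes called higher depends on how the libraries are scaled. TPM put the median gene above 0 in R7-II. When each library was instead divided by its median-of-ratios factor (the median over genes of its ratio to the geometric mean of all libraries), that median was 0.00 in both comparisons. The share of called genes that were higher then fell from 72.4% to 46.2% against R7-I, from 66.4% to 47.0% against R7-III, and from 82.8% to 56.6% for R7-III against R7-I. With that scaling, 7 genes were higher and 21 lower against R7-I (all genes 25.2% and 29.4%), and 5 were higher and 20 lower against R7-III (all genes 25.0% and 28.2%). All 14 and 15 lower calls were among these. Of the higher calls, those of Slc2a3, Hk1, Pfkfb3, G6pdx and Taldo1 against R7-I and that of Pfkm against R7-III were not.

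**Figure D1:**
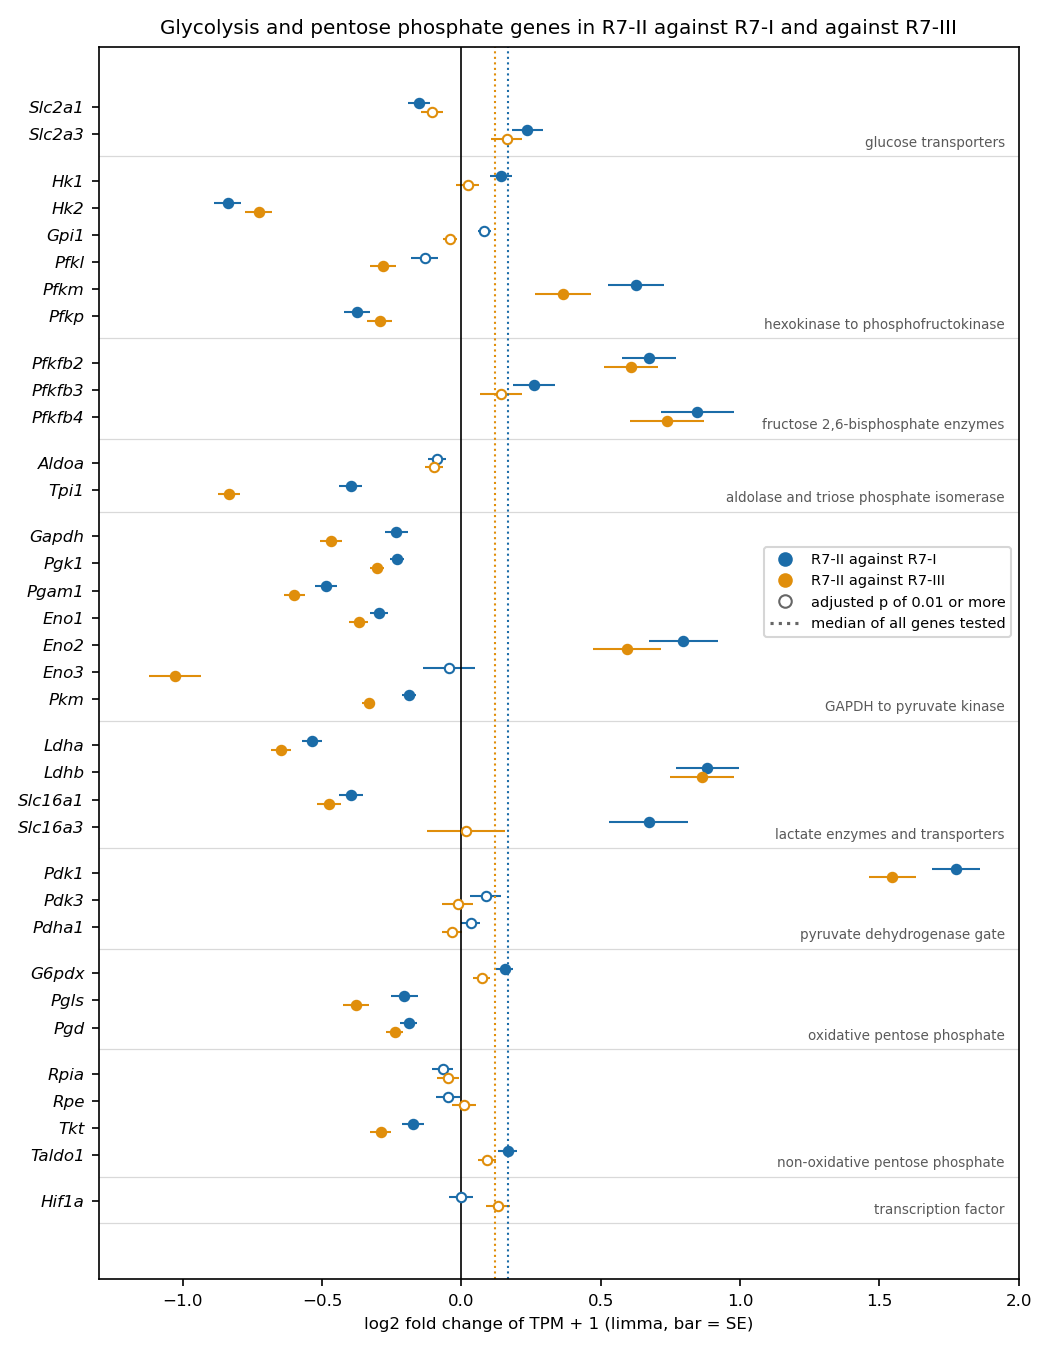
Log2 fold changes of TPM + 1 (x axis) of the 35 genes tested, in rows grouped by role, for R7-II against R7-I and against R7-III. Bars are standard errors, open circles did not pass an adjusted p of 0.01, and dotted lines are the medians of all genes tested (0.17 and 0.12). Pdk1 lies farthest to the right at 1.78 and 1.55, and the enzymes from Tpi1 to Pkm lie left of 0 except Eno2.

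Both comparisons use the same 3 R7-II libraries, so genes that passed in both are a description and not a repeat. There were 13 genes below both other clones in R7-II (Hk2, Pfkp, Tpi1, Gapdh, Pgk1, Pgam1, Eno1, Pkm, Ldha, Slc16a1, Pgls, Pgd and Tkt), where 12.8% of all genes tested were. Another 6 were higher than in both (Pfkm, Pfkfb2, Pfkfb4, Eno2, Ldhb and Pdk1), where 31.9% of all genes were. For each of these 19 genes the 3 R7-II libraries did not overlap with the other 6. How many of all genes passing in both were apart in this way is not given here. The separation therefore cannot be called particular to these 19 genes. After median-of-ratios scaling 19 genes were lower than in both and 5 higher (all genes 23.5% and 20.5%).

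The sorted cells carried the markers of their label. The summed level of 8 CD8 T cell genes (Cd3d, Cd8a and others) was 2036 to 2114 TPM in R7-I, 2095 to 2238 in R7-III and 2888 to 3005 in R7-II. B cell, MHC class II and myeloid genes were also higher in R7-II. The sum of 8 B cell genes was 34.2 to 71.2 TPM against 4.92 to 15.2 in the other 6 libraries. That of 7 MHC class II genes was 112 to 183 against 24.3 to 50.3, and that of 8 myeloid genes 24.8 to 81.2 against 4.36 to 7.75. All 7 B cell genes tested, all 7 MHC class II genes and 6 of 8 myeloid genes passed as higher for R7-II in both comparisons. Of all genes tested, 31.9% did. Blk, Cd22, Ciita, Csf1r, Adgre1, Fcer1g, Itgam and Cd14 were under 1 TPM in every library of the other clones. They were tested only because of their level in R7-II, so their calls are not independent of the filter. Itgam missed the threshold against R7-I (adjusted p = 0.0106) and Cd14 against R7-III (adjusted p = 0.0140). No marker of these lists was at 0 in every library. Genes of 3 other lists did not stand above both other clones in R7-II as a sum. CD4 T cell genes summed to 3.36 to 4.11 TPM in R7-I, 5.62 to 8.01 in R7-III and 4.03 to 5.81 in R7-II. In the same order, NK cell genes summed to 17.3 to 23.0, 1.97 to 18.65 and 3.97 to 10.7. Erythroid genes summed to 22.1 to 73.2, 8.99 to 25.4 and 1.25 to 15.1. No NK cell or erythroid gene passed in either R7-II comparison, and of CD4 T cell genes Foxp3 was higher and Cd40lg lower against R7-III. Cd40lg weighed most in the CD4 T cell sum, as Klrk1 did in the NK cell sum. Cd4 was at 0.95 to 1.0 TPM in R7-II and 0.22 to 0.53 in the other 6 libraries, and was too low to be tested. Foxp3 was at 0.62 to 1.07 against 0.18 to 0.56, and met the maximum of more than 1 TPM only through R7-II. Zbtb7b, not tested, was at 0.61 to 0.87 against 0.21 to 0.69. The part of other cells in the differences described here was not tested, and in a bulk sample fewer cells of a type and less RNA per cell cannot be told apart.

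Glucose enters T cells mainly through Slc2a1 (GLUT1) and Slc2a3 (GLUT3). Slc2a1 was at 65.7, 70.9 and 66.8 TPM in R7-I, at 65.6, 64.3 and 67.0 in R7-III and at 60.9, 59.3 and 62.5 in R7-II. R7-II was below the other 6 libraries, and the difference passed against R7-I (log2 fold change -0.15 ± 0.0392 SE, adjusted p = 0.00566) but not against R7-III (-0.11, adjusted p = 0.0341), where it did after quantile normalization (-0.20, adjusted p = 0.00100) or division by the median-of-ratios factors (-0.24, adjusted p = 2.72e-04). Slc2a3 was at 16.8, 17.0 and 17.9 TPM in R7-I, 18.8, 18.8 and 17.0 in R7-III, and 21.1, 20.1 and 20.1 in R7-II.

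The R7-II libraries were thus above all others for Slc2a3, with a log2 fold change of 0.24 against R7-I (adjusted p = 0.00326) and 0.16 against R7-III (adjusted p = 0.0236). After median-of-ratios scaling the first became 0.06 (adjusted p = 0.360), while that of Slc2a1 became -0.34. The Slc2a1 call against R7-I was lost without R7-I replicate 2 or 3, R7-II replicate 1 or 2 or R7-III replicate 1, and the Slc2a3 call without R7-I replicate 1 or 2 or R7-II replicate 1.

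Hexokinases trap glucose as glucose 6-phosphate. Hk2, the hexokinase that activated T cells add, was at 71.6, 74.1 and 66.9 TPM in R7-I, 66.4, 66.6 and 63.6 in R7-III, and 38.5, 37.8 and 41.3 in R7-II. The R7-II mean was 0.553 times that of R7-I and 0.598 times that of R7-III, with log2 fold changes of -0.84 ± 0.0483 SE (adjusted p = 2.25e-07) and -0.73 (adjusted p = 5.51e-07). Hk1, the hexokinase of most resting tissues, was at 49.4 to 50.4 TPM in R7-I, 52.2 to 56.4 in R7-III and 53.2 to 56.7 in R7-II. Its log2 fold change of 0.14 against R7-I (adjusted p = 0.00922) became -0.04 (adjusted p = 0.407) after median-of-ratios scaling, and leaving out any library other than R7-II replicate 3 and R7-III replicate 3 ended the call. Hk2 was therefore the more abundant hexokinase transcript per length in R7-I and R7-III, and Hk1 in R7-II.

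Gpi1, which turns glucose 6-phosphate into fructose 6-phosphate, was at 308 to 318 TPM in R7-I, 324 to 334 in R7-II and 336 to 341 in R7-III. R7-II differed by 0.08 on the log2 scale from R7-I (adjusted p = 0.0120) and by -0.04 from R7-III (adjusted p = 0.169), and after median-of-ratios scaling by -0.10 and -0.17 with both past the threshold. After quantile normalization the difference from R7-I was 0.14 and also passed (adjusted p = 5.16e-04), so its direction turned with the scaling.

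Phosphofructokinase commits sugar to glycolysis and has 3 genes. Pfkp, the platelet form, was the highest of them and lower in R7-II, at 144 ± 2.75 TPM (SD, n = 3) in R7-I, 136 ± 1.82 in R7-III and 111 ± 8.16 in R7-II, with log2 fold changes of -0.38 (adjusted p = 3.86e-05) and -0.29 (adjusted p = 2.35e-04). Exons of Pitrm1, on the other strand, share 17.4% of the exon bases of Pfkp, and reads were counted without strand. Pfkl, the liver form, was at 64.4, 65.8 and 68.0 TPM in R7-I, 73.6, 71.7 and 74.8 in R7-III, and 63.5, 61.3 and 56.0 in R7-II. It passed against R7-III (-0.28, adjusted p = 3.64e-04) and not against R7-I (-0.13, adjusted p = 0.0277), where it did pass after median-of-ratios scaling (-0.32, adjusted p = 1.17e-04), after quantile normalization (-0.26, adjusted p = 7.31e-04) and without R7-II replicate 1 (-0.17, adjusted p = 0.00909).

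Pfkm, the muscle form, ran the other way at a low level, with 4.85, 6.70 and 5.13 TPM in R7-I, 7.14, 6.49 and 6.80 in R7-III, and 9.40, 8.88 and 8.87 in R7-II. All R7-II libraries were above all others, with log2 fold changes of 0.63 ± 0.09996 SE against R7-I (adjusted p = 2.52e-04) and 0.36 against R7-III (adjusted p = 0.00806). The first did not pass after quantile normalization (0.29, adjusted p = 0.0191). The second call was lost without any single R7-II or R7-III library or R7-I replicate 3, and after median-of-ratios scaling it was 0.24 (adjusted p = 0.0502).

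The Pfkfb enzymes make and remove fructose 2,6-bisphosphate, the strongest activator of phosphofructokinase. Pfkfb4 was at 2.08, 1.61 and 2.41 TPM in R7-I, 2.43, 1.86 and 2.50 in R7-III, and 5.13, 4.06 and 4.14 in R7-II. R7-II stood above the others without overlap, at log2 fold changes of 0.85 ± 0.132 SE (adjusted p = 2.13e-04) and 0.74 (adjusted p = 5.83e-04). On the log2(TPM + 1) scale these understate the ratio of means, which was 2.19 to R7-I and 1.96 to R7-III.

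Pfkfb2 was at 4.08, 4.37 and 4.25 TPM in R7-I, 4.16, 4.48 and 4.82 in R7-III, and 8.31, 6.31 and 7.55 in R7-II (log2 fold changes 0.67 and 0.61, adjusted p = 1.24e-04 and 2.78e-04). Exons of Gm29427 on the same strand share 24.7% of its exon bases, and those of Yod1 on the other strand 3.07%. Pfkfb3, the main Pfkfb gene here, was at 32.0, 34.2 and 33.4 TPM in R7-I, 36.8, 36.4 and 35.1 in R7-III, and 43.4, 34.6 and 42.4 in R7-II. R7-II replicate 2 lay below the R7-III libraries, and the other R7-II libraries lay above them. The log2 fold change of Pfkfb3 against R7-I, 0.26 (adjusted p = 0.00994), passed by little. It did not pass without any library other than R7-II replicate 2, and without that replicate the difference from R7-III passed too (0.24, adjusted p = 9.41e-04).

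From aldolase to pyruvate kinase, the stretch of the pathway that yields ATP and NADH, R7-II had 6 of 9 genes tested lower and 1 higher against R7-I, and 7 lower and 1 higher against R7-III, where all genes tested were 15.5% lower and 40.6% higher, and 18.0% lower and 35.6% higher. Aldoa, which splits fructose 1,6-bisphosphate, was at 1076 to 1125 TPM in R7-I, 1072 to 1133 in R7-III and 1007 to 1074 in R7-II. It did not pass (log2 fold changes -0.09 and -0.10, adjusted p = 0.0336 and 0.0223), except without R7-II replicate 1 (-0.12 and -0.13, adjusted p = 0.00726 and 0.00521) and after median-of-ratios scaling (-0.28 and -0.23). Aldoc was listed at 0, 0 and 0.07 TPM in R7-I, at 0.22, 0.16 and 0.28 in R7-III, and at 0.18, 0.18 and 0.27 in R7-II.

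Tpi1, which interconverts the triose phosphates, was at 214, 226 and 229 TPM in R7-I, 289, 315 and 303 in R7-III, and 162, 171 and 174 in R7-II. The clones were apart at every step, with log2 fold changes of R7-II of -0.40 ± 0.0407 SE against R7-I (adjusted p = 1.08e-05) and -0.83 against R7-III (adjusted p = 1.14e-07). Gapdh, often used as a reference gene, was the highest of the 36 genes, at 4419, 4782 and 4617 TPM in R7-I, 5211, 5460 and 5585 in R7-III, and 3805, 4127 and 3824 in R7-II. Its log2 fold changes were -0.23 (adjusted p = 4.27e-04) and -0.47 (adjusted p = 3.34e-06), so it was not level between these clones.

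Pgk1, the first ATP-making enzyme, was at 936 ± 0.240 TPM (SD, n = 3) in R7-I, 984 ± 5.46 in R7-III and 798 ± 25.0 in R7-II (log2 fold changes -0.23 and -0.30, adjusted p = 1.76e-05 and 2.60e-06). Pgam1, the phosphoglycerate mutase, was at 641, 634 and 662 TPM in R7-I, 695, 686 and 713 in R7-III, and 480, 472 and 431 in R7-II. The R7-II mean was 0.714 and 0.660 times the others, at log2 fold changes of -0.49 (adjusted p = 1.91e-06) and -0.60 (adjusted p = 4.71e-07), the lowest ratio in this stretch against R7-I.

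The enolases moved apart from each other. Eno1, the common form, was at 504 ± 11.9 TPM in R7-I, 531 ± 22.2 in R7-III and 411 ± 4.57 in R7-II (SD, n = 3), with log2 fold changes of -0.30 (adjusted p = 1.87e-05) and -0.37 (adjusted p = 4.15e-06). Reads of Eno1 can be shared with Eno1b, a near-identical copy looked up after the values were seen, which was listed at 498 ± 3.55, 520 ± 56.7 and 422 ± 25.9 TPM, so the split between these copies is uncertain. Eno2, the neuronal form, was at 2.20, 3.04 and 2.40 TPM in R7-I, 3.31, 2.65 and 3.26 in R7-III, and 5.76, 4.42 and 5.29 in R7-II, above the other 6 libraries (log2 fold changes 0.80 and 0.59, adjusted p = 1.97e-04 and 0.00151). After quantile normalization the second no longer passed.

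Eno3, the muscle form, followed R7-III and not R7-II: it was at 21.3, 27.8 and 28.0 TPM in R7-I, 25.2, 24.2 and 24.7 in R7-II, and 53.1, 54.0 and 47.4 in R7-III. R7-II and R7-I overlapped (log2 fold change -0.04, adjusted p = 0.688), and R7-II was at 0.480 times the R7-III mean (-1.03 ± 0.0926 SE, adjusted p = 4.70e-06). Pkm, the pyruvate kinase of T cells, was at 1361, 1396 and 1347 TPM in R7-I, 1515, 1492 and 1529 in R7-III, and 1222, 1202 and 1178 in R7-II (log2 fold changes -0.19 and -0.33, adjusted p = 4.94e-05 and 8.97e-07). Gene totals do not part its splice forms.

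**Figure D2:**
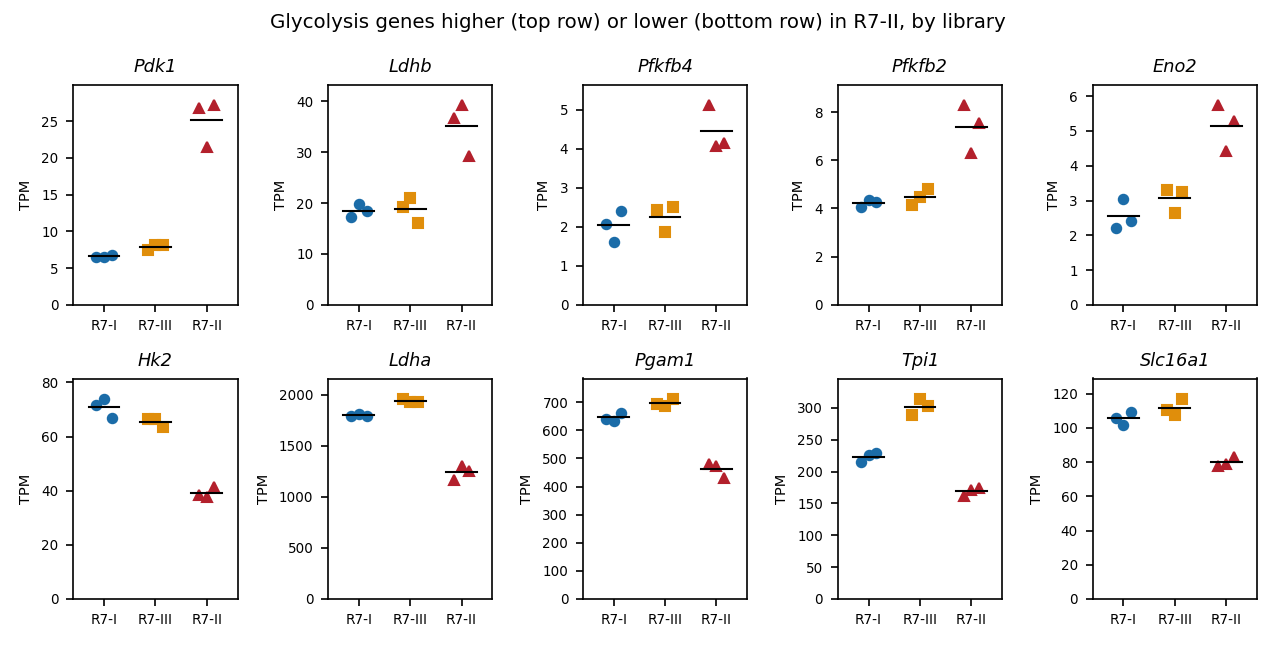
TPM per library (y axis, from 0) of 10 genes, with 3 libraries per clone as points and clone means as lines. In each panel the 3 R7-II libraries do not overlap with the other 6; Pdk1, Ldhb, Pfkfb4, Pfkfb2 and Eno2 lie above and Hk2, Ldha, Pgam1, Tpi1 and Slc16a1 below.

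Lactate dehydrogenase is built from subunits A and B; enzyme rich in A is the form of lactate-producing tissues, and enzyme rich in B that of tissues that burn lactate, such as the heart. Ldha was at 1790, 1813 and 1797 TPM in R7-I, 1965, 1928 and 1935 in R7-III, and 1167, 1307 and 1250 in R7-II, a log2 fold change of -0.54 ± 0.0354 SE (adjusted p = 5.60e-07) and -0.65 (adjusted p = 1.85e-07). Ldhb was at 17.2, 19.7 and 18.4 TPM in R7-I, 19.2, 21.0 and 16.2 in R7-III, and 36.7, 39.4 and 29.2 in R7-II, a log2 fold change of 0.88 ± 0.114 SE (adjusted p = 5.83e-05) and 0.86 (adjusted p = 7.33e-05). No R7-II library overlapped with another clone for either gene. Ldha remained far the more abundant of them in all 9 libraries.

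Lactate leaves through monocarboxylate transporters. Slc16a1 (MCT1) was at 106, 102 and 110 TPM in R7-I, 111, 107 and 117 in R7-III, and 78.0, 79.1 and 83.1 in R7-II, with log2 fold changes of -0.40 (adjusted p = 1.61e-05) and -0.48 (adjusted p = 4.74e-06). Slc16a3 (MCT4) had a low level, at 1.09, 1.69 and 1.36 TPM in R7-I, 2.51, 2.92 and 2.77 in R7-III, and 3.20, 3.12 and 2.10 in R7-II. It was above R7-I in all R7-II libraries (log2 fold change 0.67 ± 0.141 SE, adjusted p = 0.00158) and overlapped with R7-III (0.02, adjusted p = 0.926). After quantile normalization the first was 0.33 and no longer passed (adjusted p = 0.0777).

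Pdk1, pyruvate dehydrogenase kinase, which phosphorylates and switches off the enzyme that lets pyruvate into the mitochondria, differed most of the 36 genes. It was at 6.54, 6.57 and 6.73 TPM in R7-I, 7.51, 8.15 and 8.11 in R7-III, and 26.8, 21.5 and 27.3 in R7-II. The lowest R7-II library was thus above every other library by a wide margin, and the means differed 3.81-fold from R7-I and 3.18-fold from R7-III. The log2 fold changes were 1.78 ± 0.0855 SE (adjusted p = 8.50e-08) and 1.55 (adjusted p = 1.94e-07), and 1.60 and 1.42 after median-of-ratios scaling.

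Pdk3, the more abundant kinase of the same family, was at 61.0, 57.7 and 61.7 TPM in R7-I, 63.8, 63.0 and 66.8 in R7-III, and 61.4, 70.1 and 60.6 in R7-II, and R7-II overlapped with both other clones (log2 fold changes 0.09 and -0.01, adjusted p = 0.186 and 0.854). Pdha1, a subunit of the target enzyme, was at 96.2, 96.6 and 101 TPM in R7-I, 102, 99.1 and 106 in R7-III, and 100.04, 99.8 and 100.3 in R7-II (0.03 and -0.03, adjusted p = 0.405 and 0.403). After median-of-ratios scaling Pdha1 was at -0.15 and -0.17 and passed. Map3k15, on the other strand, shares 21.2% of the exon bases of Pdha1.

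The 7 pentose phosphate genes showed small differences. In the oxidative arm, which makes NADPH, G6pdx, its entry enzyme, was at 68.3 ± 1.12 TPM in R7-I, 72.3 ± 0.862 in R7-III and 76.1 ± 1.00 in R7-II (SD, n = 3), and its log2 fold change of 0.15 against R7-I (adjusted p = 0.00112) became -0.03 (adjusted p = 0.455) after median-of-ratios scaling. Pgd, the dehydrogenase of 6-phosphogluconate, was at 139, 149 and 143 TPM in R7-I, 148, 150 and 148 in R7-III, and 125, 127 and 125 in R7-II (-0.19 and -0.24, adjusted p = 2.62e-04 and 5.34e-05). Pgls, the lactonase between them, was lower too (-0.20 and -0.38, adjusted p = 0.00275 and 4.58e-05), and its first call was lost without R7-I replicate 3 or R7-II replicate 1 or 3.

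In the non-oxidative arm, which returns pentoses to glycolysis, Tkt (transketolase) was at 244, 266 and 245 TPM in R7-I, 270, 267 and 281 in R7-III, and 218, 229 and 222 in R7-II (log2 fold changes -0.17 and -0.29, adjusted p = 0.00202 and 6.80e-05). Taldo1 (transaldolase) lay the other way at 0.17 and 0.09 (adjusted p = 0.00136 and 0.0333), and the first became -0.02 (adjusted p = 0.645) after median-of-ratios scaling. Rpia and Rpe, the isomerase and epimerase of ribulose 5-phosphate, did not pass (-0.07 and -0.05 for Rpia, -0.05 and 0.01 for Rpe, adjusted p between 0.146 and 0.845). With median-of-ratios factors Rpia was lower against both (-0.25 and -0.18, adjusted p = 1.32e-04 and 0.00127), as was Rpe against R7-I (-0.23, adjusted p = 4.22e-04), and after quantile normalization both were lower against R7-I (-0.15 and -0.25, adjusted p = 0.00469 and 3.62e-04). Exons of Kansl1l share 16.3% of the exon bases of Rpe on the other strand.

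Hif1a, the oxygen-regulated factor that activates much of this pathway, was at 127, 119 and 121 TPM in R7-I, 112, 115 and 107 in R7-III, and 127, 116 and 123 in R7-II. R7-II overlapped with R7-I (log2 fold change -0.00, adjusted p = 0.977) and lay above R7-III without passing (0.13, adjusted p = 0.0215). Without R7-II replicate 2 the latter passed (0.17, adjusted p = 0.00747), and after median-of-ratios scaling the former was -0.19 (adjusted p = 0.00284). Its protein is controlled by breakdown, which RNA does not show.

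A TPM ratio of 2 genes within a library does not depend on how the library is scaled. The tested difference in log2(TPM + 1) does through the added 1, and more so for genes of low level. Of 10 pairs written down, 7 had all 3 R7-II libraries outside the range of the other 6 in this tested difference. Each had p = 0.0238 in an exact two-sided permutation test, the smallest p this design allows, and 0.0340 after adjustment over the 10 pairs. Ldha to Ldhb was a TPM ratio of 91.8 to 104 in R7-I, 91.7 to 120 in R7-III and 31.8 to 42.8 in R7-II, a difference of -1.47 in log2 ratio between R7-II and the other libraries. Hk2 to Hk1 was 1.35 to 1.47 in R7-I, 1.18 to 1.22 in R7-III and 0.679 to 0.777 in R7-II, a difference of -0.87. Pdk1 to Pdk3 was 0.107 to 0.114 in R7-I, 0.118 to 0.129 in R7-III and 0.307 to 0.450 in R7-II, a difference of 1.62.

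The other pairs apart were Pfkl to Pfkm (-0.70), Pfkfb3 to Pfkfb4 (-0.59), Slc2a1 to Slc2a3 (-0.33) and Slc16a3 to Slc16a1 (0.78). For Slc16a3 to Slc16a1 the TPM ratio itself overlapped, at 0.0253 to 0.0410 in R7-II and 0.0227 to 0.0272 in R7-III. That pair was therefore apart only with the added 1. Pfkp to Pfkl (-0.13, exact permutation p = 0.238), Aldoa to Aldoc (-0.21, exact permutation p = 0.0714) and Eno1 to Eno3 (0.20, exact permutation p = 0.548) overlapped. Between single clones, 3 libraries against 3 cannot go below p = 0.1 in an exact permutation test. The members of these pairs had been seen to differ before the ratios were taken, so the ratios restate the gene values and are no independent support. After median-of-ratios scaling, an alternative chosen after seeing the data, the differences of the 10 pairs moved by up to 0.140. Aldoa to Aldoc, which moved most, then stood apart too (-0.35, exact permutation p = 0.0238). Aldoc was at 0.28 TPM or less, so that difference follows the level of Aldoa and shifts with the scaling.

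**Figure D3:**
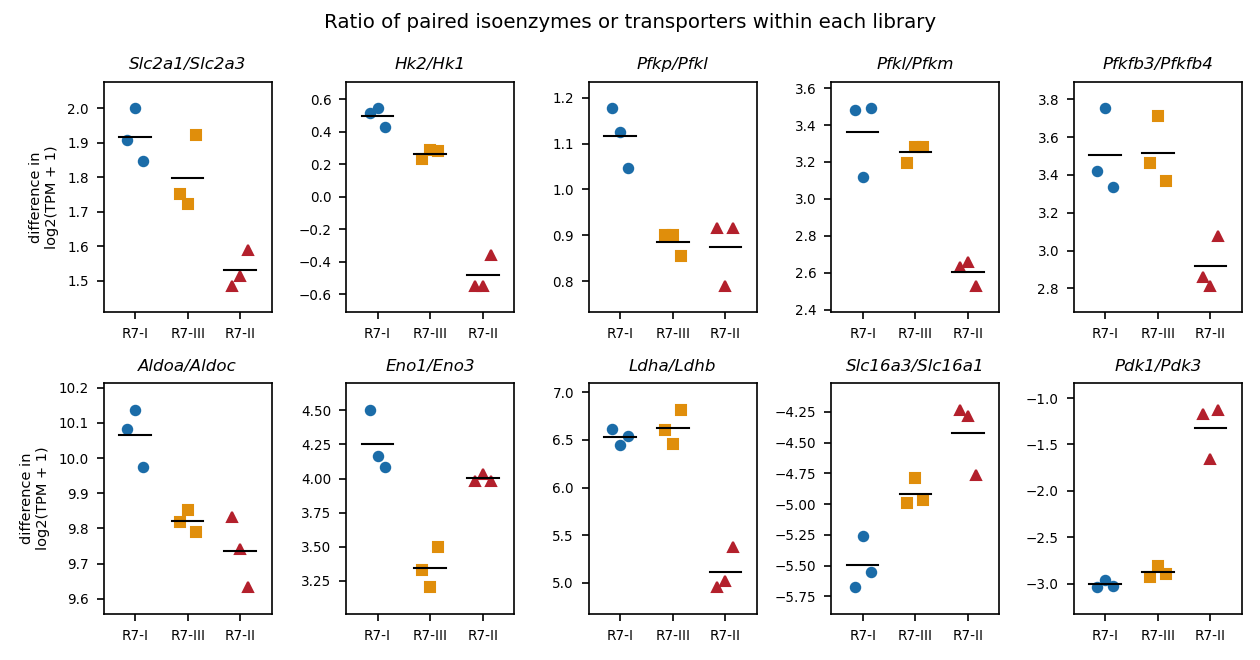
Difference in log2(TPM + 1) between both genes of each pair (y axis, a separate range per panel) in every library, with clone means as lines. R7-II lies apart from R7-I and R7-III in 7 of the 10 panels, farthest for Pdk1/Pdk3 (1.62 higher) and Ldha/Ldhb (1.47 lower on the log2 scale).

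R7-III and R7-I cells differ in affinity as measured with purified proteins, and in the opposite direction in self-reactivity. They were closer to each other, with a median absolute log2 fold change of the 35 genes of 0.11. It was 0.23 between R7-II and R7-I and 0.29 between R7-II and R7-III (all genes 0.10, 0.28 and 0.27). No gene of the 35 was lower in R7-III at an adjusted p under 0.01 and 6 were higher, against 1.45% and 6.96% of all genes tested. After median-of-ratios scaling 2 of the 6 passed, Tpi1 and Eno3 (all genes 3.72% lower and 4.86% higher). Tpi1 had a log2 fold change of 0.44 ± 0.0407 SE (adjusted p = 9.66e-05) and Eno3 one of 0.98 ± 0.0926 SE (adjusted p = 1.02e-04), and the libraries of these clones did not overlap for either.

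The other 4 were Slc16a3 (0.66, adjusted p = 0.00968), Gapdh (0.23, adjusted p = 0.00294), Pkm (0.14, adjusted p = 0.00234) and Gpi1 (0.12, adjusted p = 0.00676). The libraries did not overlap for any of them. Each of these 4 calls was lost when single libraries were left out: the count of 6 became 2 without R7-I replicate 1, R7-I replicate 3 or R7-III replicate 3, and 3 without R7-III replicate 1 or 2.

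**Figure D4:**
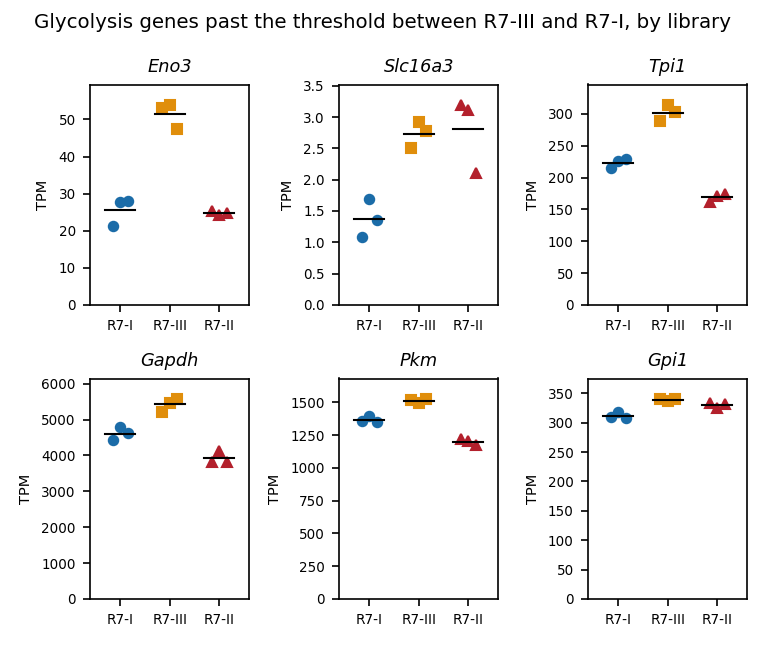
TPM per library (y axis, from 0) of the 6 genes past the threshold for R7-III against R7-I, with clone means as lines. R7-III lies above R7-I in each panel, by a ratio of means of 2.01 for Eno3, 1.981 for Slc16a3 and 1.35 for Tpi1.

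Ordered by mean TPM, 14 of the 35 genes ran R7-III, R7-I, R7-II from high to low, and for 9 of these the libraries were apart at both steps (Pfkl, Tpi1, Gapdh, Pgk1, Pgam1, Pkm, Ldha, Pgls and Tkt). Another 12 ran R7-II, R7-III, R7-I, with both steps apart for Pdk1, G6pdx and Taldo1. Slc2a1, Hk2, Pfkp and Rpia ran R7-I, R7-III, R7-II, with both steps apart for Hk2 and Pfkp. Gpi1, Pdk3 and Pdha1 ran R7-III, R7-II, R7-I, and Rpe and Hif1a ran R7-I, R7-II, R7-III. These orders are descriptions, and a step between neighbours was tested only as given above. The share of all genes tested in each order, or apart at both steps, is not given here. No order can therefore be called particular to these genes.

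Added up, the 36 genes took 1.33% ± 0.0269 of all TPM in R7-I, 1.47% ± 0.0214 in R7-III and 1.13% ± 0.0253 in R7-II (SD, n = 3 each). The libraries ran from 1.30% to 1.36% in R7-I, 1.45% to 1.49% in R7-III and 1.11% to 1.16% in R7-II, and the clones did not overlap. Without Gapdh the means were 0.868%, 0.929% and 0.736% in the same order. The 10 genes from aldolase to pyruvate kinase made up 0.941%, 1.06% and 0.802%, and the 7 pentose phosphate genes 0.0892%, 0.0946% and 0.0852%. After median-of-ratios scaling the sums of all 36 were 1.40%, 1.499% and 1.05% of the TPM total before scaling, so the order of the clones was kept. A share of each library's own total does not change with such a factor.

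**Figure D5:**
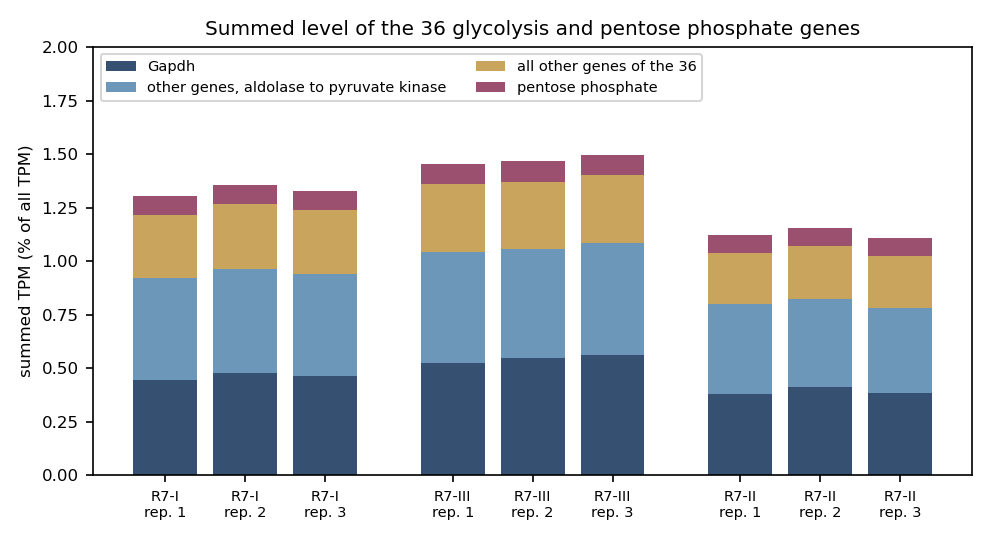
Summed TPM of the 36 genes in percent of all TPM (y axis, from 0) for each library, stacked by group of genes. R7-II libraries lie at 1.11% to 1.16%, R7-I libraries at 1.30% to 1.36% and R7-III libraries at 1.45% to 1.49%.

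A second list of 64 genes of the same pathways, such as further sugar transporters, gluconeogenesis, mitochondrial pyruvate entry and the HIF regulators, had 42 genes tested. Of these, R7-II had 14 higher and 11 lower against R7-I and 12 higher and 9 lower against R7-III, where all genes tested were 40.6% higher and 15.5% lower, and 35.6% higher and 18.0% lower. After median-of-ratios scaling 12 were higher and 17 lower against R7-I and 8 higher and 14 lower against R7-III (all genes 25.2% and 29.4%, and 25.0% and 28.2%), and without any single R7-I library 7 were lower against R7-I. Between R7-III and R7-I, 2 (Slc2a8 and Pck2) were higher in R7-III and 0 lower (all genes 6.96% and 1.45%). Pdk2, another pyruvate dehydrogenase kinase, was at 1.41, 1.64 and 1.2 TPM in R7-I, 1.29, 1.22 and 1.15 in R7-III, and 6.92, 4.46 and 6.31 in R7-II, with log2 fold changes of 1.499 ± 0.140 SE (adjusted p = 5.72e-06) and 1.62 (adjusted p = 3.51e-06). R7-II thus stood above the others for 2 of the kinases, Pdk1 and Pdk2.

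Slc2a9, a transporter of urate and sugars, was at 2.32 to 2.91 TPM in R7-I, 2.37 to 3.02 in R7-III and 7.49 to 8.17 in R7-II (log2 fold changes 1.30 and 1.28, adjusted p = 1.30e-06 and 1.39e-06). Pgam2, the muscle phosphoglycerate mutase, rose above its low level in the other clones, 0.58 to 1.33 TPM, to 1.82 to 3.22 in R7-II (1.18 and 0.89, adjusted p = 1.45e-04 and 0.00104). Pgam2 was over 1 TPM in 1 library outside R7-II, so it entered the test mostly through R7-II.

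The leading lower genes of that list were Slc2a6, Gpd2 and Pck2. Slc2a6, a sugar transporter of lysosomes, was at 6.91 to 9.17 TPM in R7-I, 8.81 to 11.1 in R7-III and 3.76 to 4.25 in R7-II (log2 fold changes -0.86 and -1.11, adjusted p = 4.84e-05 and 8.55e-06). Gpd2, the mitochondrial glycerol phosphate dehydrogenase that passes electrons from glycolytic NADH to the respiratory chain, was at 25.8 ± 1.095, 27.2 ± 1.33 and 17.2 ± 1.18 TPM in R7-I, R7-III and R7-II (SD, n = 3; -0.56 and -0.63, adjusted p = 1.84e-05 and 8.50e-06). Pck2, the mitochondrial PEP carboxykinase, was at 25.5 ± 3.75, 36.2 ± 2.41 and 18.8 ± 1.31 TPM (-0.41 and -0.91, adjusted p = 0.00326 and 1.55e-05), and its call against R7-I was lost without R7-I replicate 1 or 3 or R7-II replicate 2.

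A few genes of the list were picked after their values were seen because they act on the genes above. Bsg (basigin), the chaperone that brings Slc16a1 and Slc16a3 to the surface, was lower in R7-II with Slc16a1 (319 ± 19.3 TPM against 402 ± 3.62 in R7-I and 420 ± 9.68 in R7-III, log2 fold changes -0.33 and -0.40, adjusted p = 3.16e-05 and 9.57e-06). Emb (embigin), a related chaperone, was higher (0.38 and 0.23, adjusted p = 2.57e-05 and 0.00108), and the second became 0.09 (adjusted p = 0.0729) after median-of-ratios scaling. Of 6 HIF regulators tested, Arnt, the partner of Hif1a, and Hif1an and Egln2, which hydroxylate Hif1a, were above R7-I and R7-III in R7-II cells (log2 fold changes from 0.35 to 0.47), where 31.9% of all genes tested were, and Egln1, Egln3 and Vhl did not pass in either.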

How the data were processed

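RNA of sorted, ROP7-activated CD8 T cells was sequenced in 9 libraries, 3 per clone, without strand. The authors estimated gene levels with RSEM 1.2.11 on RefSeq genes of mm10 and deposited TPM, which are scaled to a fixed total and keep no depth, so no counting interval is given. The aligner was not given in the sources used here, and the counts the authors tested with DESeq2 1.8.1 were not used.

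Changes were tested with limma 3.58.1 (R 4.3.3, trend) on log2(TPM + 1), all 9 libraries in 1 fit, for genes with a maximum TPM above 1, with Benjamini-Hochberg adjustment over 11330 genes and a threshold of 0.01. The fit was tested on simulated data. Ratios within libraries were compared by exact permutation tests (scipy 1.17.1, Python 3.11.15). The labels call the libraries of a clone biological replicates without saying which animals they came from, so p-values measure the spread between these libraries. Pearson correlations across genes were 0.992 to 0.997 within clones.

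The members and lists were chosen with earlier results of these data known. Values in every library, or their range or mean with SD, are given for up to 5 genes per direction with the largest differences in both R7-II comparisons. They are also given for genes passing between R7-III and R7-I, the most abundant gene of each role, Hif1a, Slc2a1, Slc2a3, Hk2 and Pdk1. The same holds for pairs that set R7-II apart and, of the second list, for up to 3 genes per direction. Exon overlaps are from GENCODE M21.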

Additional observations from a re-analysis of the deposited data

How the results depend on the processing

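Over 138 single-gene differences and 2757 repeats under other settings, 2558 kept their direction and side of the threshold, 47 passed neither before nor after and changed sign, 107 no longer passed, 37 passed newly and 8 that passed before or after changed sign. These 8 were all for R7-II against R7-I. Gpi1 (-0.10) and Pdha1 (-0.15), which had not passed, did so after median-of-ratios scaling with the sign changed. Gpi1 also passed with its sign kept after quantile normalization (0.14), without the filter on low values (0.08) and without R7-II replicate 2 (0.095). It did so at a threshold of 0.05 too. The other 6 no longer passed: Hk1 (-0.042 after median-of-ratios scaling, -0.018 after quantile normalization), G6pdx (-0.031) and Taldo1 (-0.021) after median-of-ratios scaling, and Slc2a3 (-0.018) and Pkm (0.011) after quantile normalization. The calls of Pdk1, Ldhb, Pfkfb2, Pfkfb4, Hk2, Ldha, Pgam1, Tpi1, Slc16a1, Pfkp, Pgk1, Eno1, Pgd and Tkt in both R7-II comparisons held under every setting tried. The cause of the changes was not tested.

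For R7-II against R7-I, the members called higher numbered 12, and 7 after median-of-ratios or quantile normalization; those higher in R7-III than in R7-I numbered 6, and 2 after median-of-ratios scaling or without the limma trend. Of the second list, the genes lower for R7-II against R7-I went from 11 to 17 (median-of-ratios), and those lower against R7-III from 9 to 14 (median-of-ratios) and 15 (quantile). Its genes higher in R7-III than in R7-I went from 2 to 1 (no filter, median-of-ratios), 0 (quantile) and 5 (threshold of 0.05), and those lower from 0 to 2 (median-of-ratios), 1 (quantile) and 1 (threshold of 0.05). After quantile normalization, 2558 of all 11330 genes tested were higher for R7-II against R7-I, and 2843 were lower against R7-III. For R7-III against R7-I, 427 were then higher and 255 lower. Shares of all genes for the threshold of 0.05, no filter or no limma trend are not given here. Summed levels in R7-I, R7-III and R7-II were 0.868%, 0.929% and 0.736% without Gapdh and 1.40%, 1.499% and 1.05% after median-of-ratios scaling.

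With each library left out, members higher and lower numbered 9 to 12 and 12 to 14 (R7-II against R7-I), 5 to 7 and 15 to 16 (R7-II against R7-III) and 2 to 6 and 0 (R7-III against R7-I); those of the second list 14 to 15 and 7 to 9, 9 to 13 and 8 to 10, and 0 to 2 and 0. The second list had 7 genes lower in R7-II than in R7-I without any single R7-I library. Ratios had an exact permutation p of 0.0714 at best with an R7-II library left out, which is the smallest that design allows. Aldoa to Aldoc, a difference set almost wholly by Aldoa, reached an exact permutation p of 0.0238 with a pseudocount of 5 or after median-of-ratios scaling.

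Same-numbered libraries of different clones did not deviate together (correlations of -0.04 to 0.09), so no pairing by number was seen in the values. Such correlations cannot exclude that same-numbered libraries were handled together, which the labels do not state. With the replicate number as a block, 1 gene of the second list was higher in R7-III than in R7-I, and the calls of Slc2a1 and Pfkfb3 against R7-I, Pfkm against R7-III, and Gpi1 and Slc16a3 between R7-III and R7-I were lost (adjusted p between 0.0124 and 0.0198); no other call of a gene named here changed. TPM gives no depth, so the precision of low genes such as Slc16a3, Pfkfb4 and Eno2 cannot be stated from counts.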
